A study of Mus musculus with 40 samples.

Results

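Matched animals ate after weaning the same diet as their dam, and mismatched animals ate the other one. Sample labels placed 20 of the 40 whole-brain arrays in the matched class (LF_LF and HF_HF, 10 each) and the other 20 in the mismatched class (LF_HF and HF_LF, 10 each), where each name gives the dam's diet first and the offspring's own diet second, LF is low fat and HF is high fat. All animals were C57BL/6J males, each hybridised to 1 MouseRef-8 beadchip, and according to the methods they were killed at 9 weeks of age. Dams ate their diet from before mating until day 21 after birth, so that exposure before conception, in the womb and during suckling cannot be told apart. The animals came from 12 breeding cages, and 5 of these supplied animals to both post-weaning diets. Each replicate was its own animal, though up to 6 of them came from 1 cage.

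A widely discussed idea in developmental nutrition holds that early life sets the offspring for the food its mother met, so that trouble arises when the later food is different. Such a mismatch effect is an interaction: it is what remains of a gene's level after the maternal diet and the post-weaning diet have each been allowed their own effect. In the brain the circuits most often considered are the hypothalamic neurons that control feeding, the insulin and leptin receptors that inform them, the stress hormone response and the clock that times meals. The difference reported throughout is the mean of LF_LF and HF_HF minus the mean of LF_HF and HF_LF on the log2 scale, which is 0 when the effects of both diets simply add.

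No gene measured above background passed the test between matched and mismatched brains. Of 14381 probes kept, 0 passed a Benjamini-Hochberg adjusted p of 0.05 in limma (0% of probes), the smallest adjusted p was 0.998, and 138 probes (0.96%) had an unadjusted p under 0.05. Of these, 48 (0.334% of kept probes) were higher and 90 (0.626%) lower in matched animals. With no true difference a threshold of 0.05 passes a share of about 0.05, which is more than the 0.96% seen here. The number with an unadjusted p under 0.05 was 1040 with array weights and 482 without breeding cage 11, and 0 passed in either. The precision was that of small differences: the median standard error was 0.0528 on the log2 scale, and for 12684 probes (88.2%) the 95% interval of the difference lay within 1.2-fold in either direction. For 6817 probes (47.4%) it lay within 1.1-fold. Only 111 probes had a difference over 1.2-fold, and the lowest unadjusted p among them was 0.0777.

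The whole profile did not separate the classes. The median correlation over kept probes was 0.981 between matched arrays, 0.983 between mismatched arrays and 0.982 between a matched and a mismatched array. Principal component 1 took up 54.8% of the variance, and its matched minus mismatched difference was 0.30 ± 0.32 SD units (SE, permutation p = 0.36, adjusted over 3 components 0.948). Of 40 arrays 5 stood apart by their low mean correlation with the others, 3 matched and 2 mismatched, and without them 153 probes had an unadjusted p under 0.05 and 0 passed. Markers of neurons in general (12 of 14 kept), oligodendrocytes (15 of 18) and astrocytes (12 of 14) were measured above background.

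Over every probe of the table, with no filter, 1 of 25697 probes (0.00389%) passed. This was the probe of A430078G23Rik, a transcript without a described function. Its intensity ran from 75.6 to 86.7 in LF_LF (median 81.8) and from 82.8 to 91.8 in HF_HF (median 88.4). It ran from 70.3 to 84.7 in LF_HF (median 76.0) and from 69.8 to 87.1 in HF_LF (median 76.4). HF_HF lay highest, and the groups overlapped. The difference was 0.14 ± 0.03 on the log2 scale (SE, limma adjusted p = 0.0374), and 19 of 20 matched animals lay above the mean of the mismatched animals on the same post-weaning diet. This probe exceeded background, which was set between 81.6 and 90.9 on the arrays, on only 6 of 40 arrays. On most arrays its intensity thus did not exceed the 95th percentile of the olfactory, vomeronasal and taste receptor probes that set background.

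Body measures were compared as the setting of the brain data, since a mismatch is usually described through weight and glucose. Weight at 3 weeks, when the animals had not yet met their own diet, was 9.57 ± 0.94 g in LF_LF, 11.6 ± 1.25 g in HF_HF, 9.18 ± 1.00 g in LF_HF and 10.9 ± 0.84 g in HF_LF (SD, n = 10 each). The groups overlapped, and pups of HF dams were the heavier whichever diet they were to receive. Matched minus mismatched was 0.54 ± 0.32 g (SE, permutation p = 0.101, adjusted over 4 measures 0.202). At that age no pup had yet been given its post-weaning diet. Without the 6 animals of breeding cage 23 it was 0.948 g (adjusted permutation p = 0.0276). This was the highest value as cages were left out in turn, the lowest being 0.300 g, so that this call turned on 1 cage.

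None of the later measures passed over all animals. The second weight, which the labels call weaning although its values of 20.4 to 34.1 g are those of grown mice, averaged 24.7 ± 1.15 g in LF_LF and 23.7 ± 1.81 g in HF_LF. It averaged 30.5 ± 1.68 g in HF_HF and 30.3 ± 1.86 g in LF_HF (SD, n = 10 each). HF-fed mice were thus the heavier whatever their dams ate, and matched minus mismatched was 0.57 ± 0.52 g (SE, permutation p = 0.279, adjusted 0.321). Blood glucose was highest in LF_HF at 222 ± 29.3 mg/dl and lowest in HF_HF at 188 ± 42.8 mg/dl, with 206 ± 34.6 mg/dl in LF_LF and 194 ± 24.0 mg/dl in HF_LF (SD, n = 10 each). The groups overlapped widely, and matched minus mismatched was -10.6 ± 10.6 mg/dl (SE, permutation p = 0.321, adjusted 0.321), with a 95% interval of -32.0 to 10.8 mg/dl.

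Body length averaged 99.7 ± 1.34 mm in LF_LF, 102.6 ± 1.06 mm in HF_HF, 102.3 ± 2.11 mm in LF_HF and 98.0 ± 2.05 mm in HF_LF (SD, n = 10, 8, 10 and 10). Matched minus mismatched was 1.01 ± 0.56 mm (SE, permutation p = 0.0827, adjusted 0.202). Without the 5 animals of breeding cage 11 it was 1.60 mm (adjusted permutation p = 0.0271), so that this call turned on 1 cage.

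**Figure D1:**
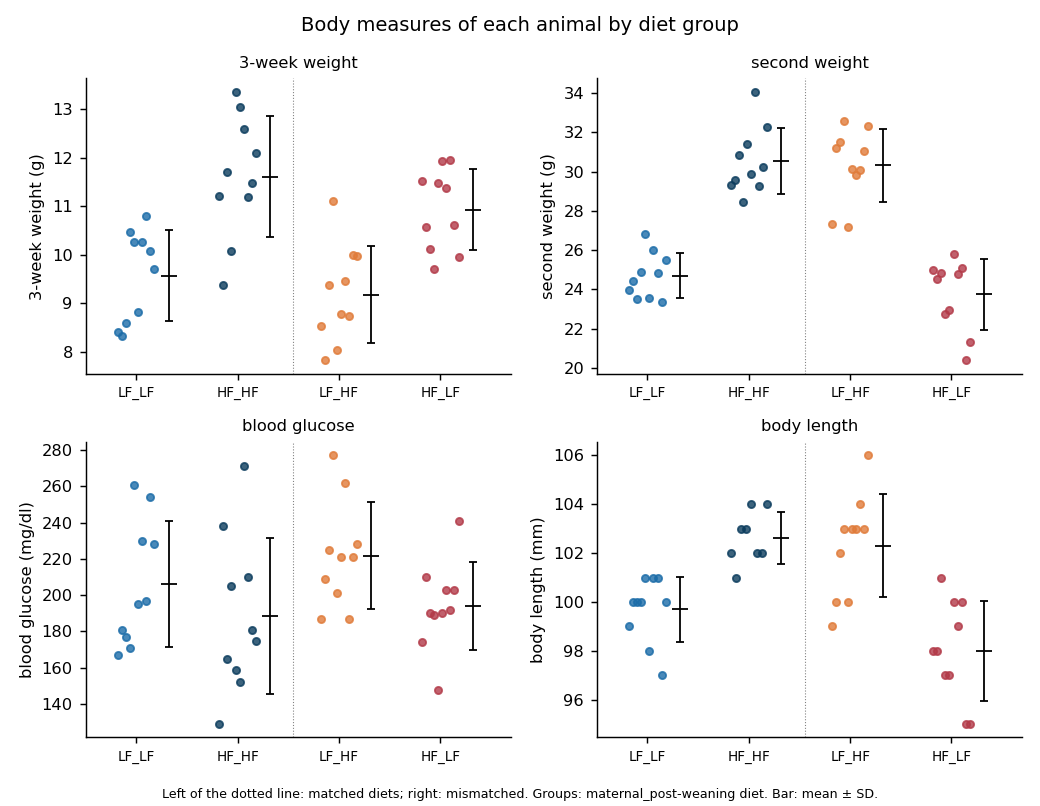
Weight at 3 weeks and the second weight (g), blood glucose (mg/dl) and body length (mm) of each animal (points) by group, with mean ± SD (bars); matched groups lie left of the dotted line. HF-fed groups have the higher second weights near 30 g in both classes, and the matched and mismatched classes overlap in all 4 measures.

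Since no kept probe passed, the 12 genes with the smallest p in each direction are described, 1 probe per gene. Their differences were small, between 0.08 and 0.17 on the log2 scale (1.06-fold to 1.12-fold), with unadjusted p between 0.00275 and 0.0157. In all 24 the LF-fed and the HF-fed comparison had the same sign, a property the ranking favours. Between 14 and 18 of the 20 matched animals lay on the side of the difference from the mean of mismatched animals on the same post-weaning diet. The ranking favours such counts too.

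Lower in matched animals by smallest p stood Per2, a repressor in the core loop of the circadian clock. Its intensity ran from 598 to 869 in LF_LF (median 757), from 642 to 894 in HF_HF (median 740), from 752 to 1055 in LF_HF (median 956) and from 603 to 880 in HF_LF (median 764). The LF_HF median stood high and the other groups lay together, though the LF_HF range began below the medians of LF_LF and HF_LF. The difference was -0.17 ± 0.05 (SE, p = 0.00275, limma adjusted p = 0.998), with 16 of 20 matched animals on that side. In HF-fed offspring it was -0.29 ± 0.07 and in LF-fed offspring -0.04 ± 0.07, so that most of the difference lay in HF-fed animals. The other kept probe of Per2 gave -0.13 (p = 0.0218). Its parts had opposite signs, 0.03 in LF-fed and -0.30 in HF-fed offspring.

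Next in order was Map3k8, a kinase that relays inflammatory signals to the ERK pathway. Its intensity was 86.7 to 118 in LF_LF (median 96.3), 95.8 to 112 in HF_HF (median 102), 104 to 122 in LF_HF (median 111) and 98.6 to 117 in HF_LF (median 101). Values were dim and overlapped in all groups. The difference was -0.10 ± 0.03 (SE, p = 0.00412), with -0.09 in LF-fed and -0.11 in HF-fed offspring. Esco1, an acetyltransferase of the cohesin ring that holds sister chromatids, was 87.3 to 120 in LF_LF (median 100), 92.5 to 128 in HF_HF (median 99.0), 100 to 125 in LF_HF (median 109) and 98.7 to 124 in HF_LF (median 113). Its groups overlapped too, with both mismatched medians above both matched ones, and the difference was -0.11 ± 0.04 (SE, p = 0.00513).

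The remaining 9 lower genes served varied parts of the cell. Zfp873 (-0.10) and Zfp846 (-0.09) encode zinc finger proteins, and Bhlhb9 (-0.10) had 18 of 20 matched animals on the lower side. Etaa1 (-0.13) encodes an activator of the replication stress kinase ATR, and Lsg1 (-0.11) a GTPase of ribosome assembly. Prpf3 (-0.08) encodes a splicing factor of the tri-snRNP, and all of its 3 other kept probes were also below 0, from -0.08 to -0.03. Those 3 lay above 0 in LF-fed offspring (0.01 to 0.05) and below 0 in HF-fed offspring (-0.18 to -0.10). Clcc1 (-0.11), a chloride channel of the endoplasmic reticulum, Tcaf1 (-0.09), a partner of a TRP channel, and Ccdc159 (-0.10) completed the set. Zfp873 and Clcc1 were above background on only 25 and 24 of 40 arrays.

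Higher in matched animals by smallest p stood Zfp64, a zinc finger transcription factor. Its intensity was 107 to 128 in LF_LF (median 113), 107 to 128 in HF_HF (median 117), 95.9 to 122 in LF_HF (median 109) and 99.9 to 121 in HF_LF (median 109). The groups overlapped with matched medians above mismatched ones, and the difference was 0.08 ± 0.03 (SE, p = 0.00687). Its other kept probes gave -0.01 and 0.01, so that the difference belonged to 1 probe of 3.

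The same held for Dync1i1, an intermediate chain of the dynein motor in neurons. Its intensity was 478 to 596 in LF_LF (median 550), 442 to 588 in HF_HF (median 540), 396 to 552 in LF_HF (median 473) and 451 to 595 in HF_LF (median 520). LF_HF lay lowest and all groups overlapped, and the difference was 0.11 ± 0.04 (SE, p = 0.00941), against -0.03 for the other probe. Tk2, the thymidine kinase of mitochondria, has 1 kept probe and was 728 to 953 in LF_LF (median 815), 669 to 969 in HF_HF (median 805), 646 to 836 in LF_HF (median 736) and 642 to 933 in HF_LF (median 758). Both mismatched medians lay below both matched ones, again with overlap, and the difference was 0.12 ± 0.05 (SE, p = 0.0108).

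Among the other 9 higher genes, Keap1 (0.09), the sensor that holds the antioxidant factor Nrf2 in check, had kept probes at 0.06, -0.03 and -0.05 beside it. Faim2 (0.10), a neuronal inhibitor of Fas-induced death, had a second probe at -0.06. Arsb (0.09), a lysosomal sulfatase, had one at -0.01, and Clec2e (0.09), a C-type lectin, had one at -0.08. Them4 (0.15), a thioesterase, Elmo3 (0.09), a scaffold of engulfment, and Cdc42ep1 (0.13), an effector of the GTPase Cdc42, had no other kept probe, as had Exd1 (0.10) and AI837181 (0.12). Exd1 and Arsb were above background on only 28 of 40 arrays and Clec2e on 34. For all 6 higher genes with a further kept probe, at least 1 such probe lay on the other side of 0.

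**Figure D2:**
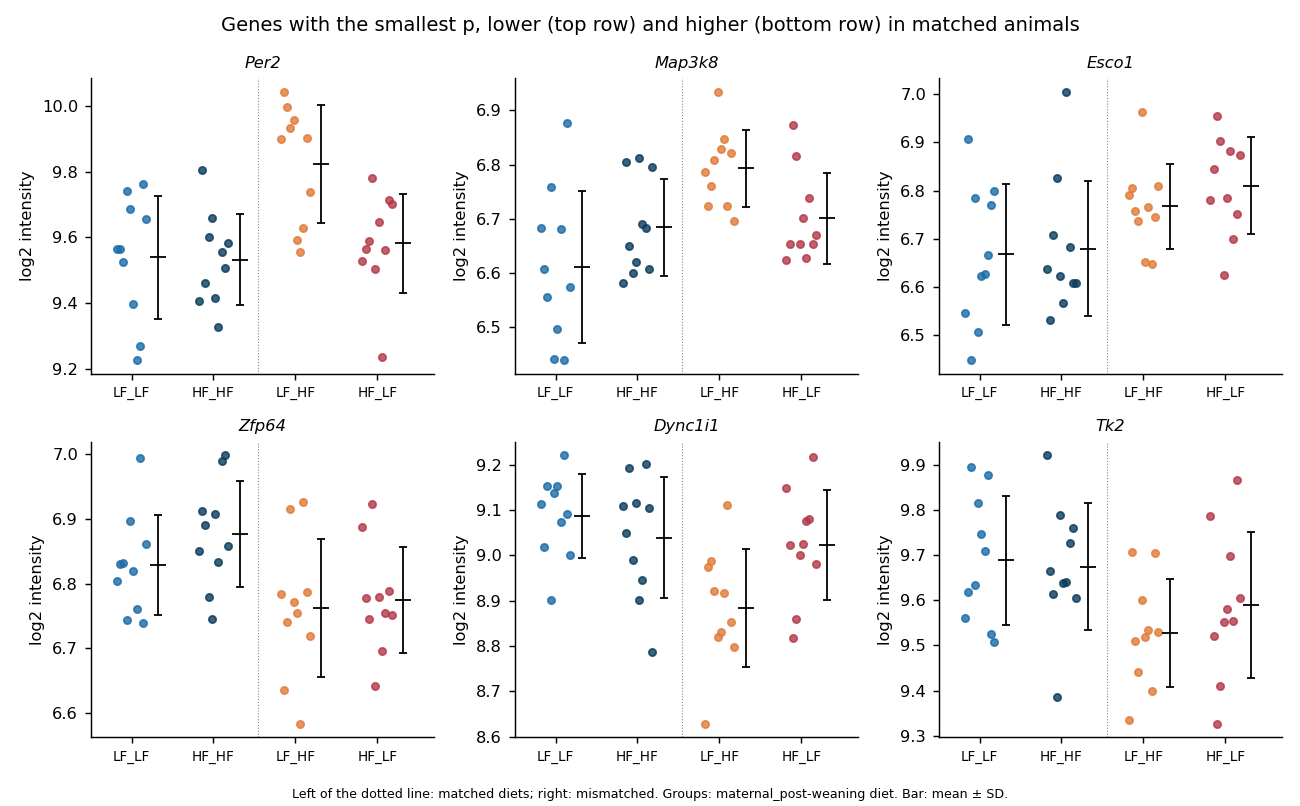
Log2 intensity of each animal (points) by group for the 3 genes with the smallest p that were lower in matched animals (Per2, Map3k8, Esco1) and the 3 that were higher (Zfp64, Dync1i1, Tk2), with mean ± SD (bars). LF_HF stands high for Per2, and the groups overlap in every panel.

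The circadian clock runs on a loop in which CLOCK and BMAL1 switch on Per, Cry and Ciart through E-boxes in their promoters, and these proteins then repress CLOCK and BMAL1. Of 21 clock genes listed, 18 were measured: 6 were higher and 12 lower in matched animals, and 0 passed. The median was -0.01, against -0.01 over all 9945 genes. Of those 9945 genes 3975 were higher and 5970 lower, the background for the counts of every list below. Per2 and Ciart had unadjusted p under 0.05. Ciart, a repressor of CLOCK and BMAL1, ran from 219 to 494 in LF_LF (median 348), from 228 to 334 in HF_HF (median 303), from 245 to 393 in LF_HF (median 309) and from 320 to 546 in HF_LF (median 429). HF_LF stood high here, where Per2 stood high in LF_HF, and the groups overlapped. The difference was -0.18 ± 0.08 (SE, p = 0.0315, limma adjusted p = 0.998), with -0.30 in LF-fed and -0.05 in HF-fed offspring, and a second probe gave -0.04.

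For partners in the loop the 95% interval of each difference held 0. Per1 differed by -0.07 ± 0.07 (SE) and Arntl, which encodes BMAL1, by 0.11 ± 0.15 (SE). Dbp, an output gene of the loop, differed by -0.04 ± 0.05 (SE), and Tef, its relative, by 0.11 ± 0.07 (SE). Nr1d1, which represses Arntl, differed by -0.01 ± 0.06 (SE), and by 0.01 after cyclic loess.

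Promoters of Ciart and Per1 are printed because both genes are direct targets of CLOCK and BMAL1 and Ciart had one of the 2 clock differences with p under 0.05. They cover the 250 bases before the start site in RefSeq (build GRCm38.p6), written 5′ to 3′ on the gene's strand, with each E-box (CACGTG, its own reverse complement) and each E-prime box (CACGTT on either strand) in capitals. Ciart lies on the minus strand (chr3:95882229-95882478) and Per1 on the plus strand (chr11:69098699-69098948, the first of 2 entries). The Ciart window holds 3 E-boxes and the Per1 window 1, and neither holds an E-prime box. The second Per1 entry and the windows of Per3, Dbp, Nr1d1 and Nr1d2 hold 0 E-boxes, and each of the 2 entries of Tef holds 1. The Nr1d1 window holds 1 E-prime box. Per2 had no entry among the promoter sequences used, so that its window was not examined. Of 32851 promoter windows of the same length, 6.02% hold an E-box and 3.85% an E-prime box.
Ciart: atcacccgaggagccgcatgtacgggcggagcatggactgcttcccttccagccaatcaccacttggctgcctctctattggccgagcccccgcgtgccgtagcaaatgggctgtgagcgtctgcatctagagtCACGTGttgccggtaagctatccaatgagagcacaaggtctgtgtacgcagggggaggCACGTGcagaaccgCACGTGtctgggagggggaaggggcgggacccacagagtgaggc
Per1: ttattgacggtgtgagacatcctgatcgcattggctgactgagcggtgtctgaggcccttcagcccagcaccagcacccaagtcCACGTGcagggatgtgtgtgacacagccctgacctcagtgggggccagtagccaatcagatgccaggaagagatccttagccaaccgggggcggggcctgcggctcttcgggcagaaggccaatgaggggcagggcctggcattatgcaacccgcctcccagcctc

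No stress hormone target passed the test. Of 20 glucocorticoid-responsive genes 18 were measured, 3 higher and 15 lower in matched animals, with a median of -0.06, while 41.1% of all kept probes lay above 0 and 58.9% below. The list median was -0.12 in LF-fed and 0.06 in HF-fed offspring, so that by this median offspring of HF dams were the higher on both diets, a difference between the parts that was not tested over the list. Fkbp5, a chaperone of the glucocorticoid receptor that the receptor itself induces, ran from 199 to 335 in LF_LF (median 255), from 230 to 332 in HF_HF (median 274), from 210 to 303 in LF_HF (median 253) and from 263 to 417 in HF_LF (median 321). HF_LF stood high and overlapped the rest, and the difference was -0.11 ± 0.06 (SE, p = 0.0706), with -0.33 in LF-fed and 0.11 in HF-fed offspring. Map3k6, a stress-activated kinase, had the smallest p of the list (-0.09 ± 0.04, SE, p = 0.0463), with -0.27 and 0.09. Pdk4, which turns cells from glucose to fat as fuel, differed by -0.06 ± 0.04 (SE). The receptor gene Nr3c1 differed by 0.09 ± 0.08 (SE).

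Immediate early genes, which neurons switch on within minutes of activity, did not pass either. Of 24 listed 17 were measured, 13 higher and 4 lower, with a median of 0.05 (-0.01 without breeding cage 23) and 0 passed. The median was 0.18 in LF-fed and -0.11 in HF-fed offspring, so that by this median offspring of LF dams were the higher on both diets. Fos differed by 0.44 in LF-fed and -0.24 in HF-fed offspring, and Arc, a regulator of synapse strength, by 0.35 and -0.40. Averaged over both diets these became 0.10 ± 0.14 and -0.02 ± 0.18 (SE). Dusp1, a phosphatase that shuts off MAP kinases, differed by 0.12 ± 0.09 (SE), and by -0.01 without breeding cage 23. Jun differed by 0.09 ± 0.07 (SE), and by -0.10 with cage as a fixed effect.

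Of feeding peptides and their receptors 19 of 30 were measured, 8 higher and 11 lower in matched animals, with 0 passed and a median of -0.02. Hcrt, the orexin of lateral hypothalamic neurons that promotes waking and feeding, ran from 75.5 to 857 in LF_LF (median 156), from 64.8 to 819 in HF_HF (median 82.6), from 75.5 to 702 in LF_HF (median 125) and from 76.7 to 991 in HF_LF (median 261). Each group held animals near background and animals several times brighter, and Hcrt was above background on 24 of 40 arrays. The difference was -0.43 ± 0.41 (SE, p = 0.304), one of the largest in size of all kept genes. Pmch, the melanin-concentrating hormone precursor of the same region, ran from 82.2 to 5286 in HF_HF alone (median 98.8) and differed by -0.24 ± 0.67 (SE, p = 0.726).

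Such spread within a group limits what a whole brain can show of small nuclei. Fewer cells of a type and less RNA per cell cannot be told apart in such tissue, nor can the amount of a nucleus that reached the extract. Cartpt, a satiety peptide, differed by -0.13 ± 0.22 (SE), with 0.29 in LF-fed and -0.56 in HF-fed offspring. Npy, which promotes feeding, differed by 0.05 ± 0.12 (SE). Sst, the somatostatin of interneurons, differed by 0.16 ± 0.11 (SE) and Npy5r, a receptor of Npy, by -0.05 ± 0.05 (SE). Pomc, Agrp and Lepr had 0 kept probes.

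Insulin, IGF and leptin signalling had 8 of 20 measured genes higher and 12 lower, 0 passed and a median of -0.01. Mtor, the kinase that couples nutrients to growth, differed by -0.10 ± 0.07 (SE, p = 0.18). Igf1, the growth factor, and Gsk3b, a kinase that insulin restrains, each differed by -0.06 ± 0.05 (SE).

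Cholesterol synthesis and transport had 6 of 24 measured genes higher and 18 lower, 0 passed, with a median of -0.03. Over all 9945 genes 3975 were higher and 5970 lower. Fdps, which makes farnesyl diphosphate, ran from 1034 to 1685 in LF_LF (median 1459), from 1064 to 1713 in HF_HF (median 1449), from 1309 to 1709 in LF_HF (median 1588) and from 1155 to 1757 in HF_LF (median 1542). Mismatched medians lay above matched ones by less than the spread, and the difference was -0.11 ± 0.06 (SE, p = 0.0807). Mvd, the decarboxylase before it, differed by -0.12 ± 0.08 (SE), and Sc5d, a late desaturase, by -0.06 ± 0.04 (SE). Lss differed by -0.09 ± 0.06 (SE) and Msmo1, the gene once called Sc4mol, by -0.04 ± 0.04 (SE). Srebf1, a lipid transcription factor, differed by -0.03 ± 0.07 (SE), Pparg by -0.04 ± 0.08 (SE) and Cebpb by 0.00 ± 0.06 (SE).

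Of fuel genes, fatty acid oxidation and ketone use had 11 of 23 measured higher and 12 lower, 0 passed and a median of -0.01. Hadh, a dehydrogenase of the oxidation spiral, had the smallest p (0.11 ± 0.05, SE, p = 0.0252), at intensities of 77.2 to 117 that were above background on 31 of 40 arrays. Bdh1, which turns ketone bodies over, differed by 0.08 ± 0.05 (SE). Glycolysis, the citrate cycle and respiratory complexes had medians between -0.01 and 0.02.

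Enzymes of DNA methylation and histone modification, often proposed as carriers of early exposure, had 9 of 28 measured genes higher and 19 lower, 0 passed and a median of -0.02. Setdb1, a methyltransferase that silences retroelements, was 235 to 289 in LF_LF (median 275), 244 to 319 in HF_HF (median 268), 265 to 312 in LF_HF (median 299) and 256 to 312 in HF_LF (median 272). LF_HF stood highest and all groups overlapped, and the difference was -0.07 ± 0.04 (SE, p = 0.0396, limma adjusted p = 0.998). Imprinted genes, which are expressed from 1 parental copy, had 11 of 21 higher and 10 lower, and a median of 0.00. Impact differed by -0.13 ± 0.09 (SE), Peg3 by -0.14 ± 0.12 (SE) and Snrpn by 0.06 ± 0.05 (SE).

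The list medians over all 40 lists with at least 5 measured genes lay between -0.16 and 0.19. Of 640 list entries measured, 9 (1.41%) had an unadjusted p under 0.05, against 0.865% of all kept genes. Beside Per2, Ciart, Map3k6, Hadh and Setdb1 these were Rsad2, an interferon-induced antiviral gene (-0.12 ± 0.05), Psmd11, a proteasome subunit (0.13 ± 0.06), Ndufb11 of respiratory complex I (0.09 ± 0.04) and Atp5g3 of the ATP synthase (0.05 ± 0.02, SE each). The highest and the lowest median belonged to marker lists of tissue parts. Choroid plexus genes, from the tissue that makes cerebrospinal fluid, were higher in 10 of 10 measured (15 listed), with a median of 0.19 and 0 passed. Markers of striatal medium spiny neurons were lower in 10 of 10 (14 listed), with a median of -0.16, and those of thalamic neurons in 9 of 9 (12 listed), with a median of -0.06. Between the striatal and the thalamic median lay blood cells (-0.12), dopaminergic and serotonergic neurons (-0.10, 6 of 8 lower), hypothalamic neurons (-0.07, 7 of 8 lower) and the glucocorticoid list, and cerebellar neurons had a median of 0.08 (5 of 7 higher). The hypothalamic median was 0.12 in LF-fed and -0.38 in HF-fed offspring, and the thalamic one -0.01 and -0.19. In the same order dopaminergic and serotonergic neurons had 0.03 and -0.14, cerebellar neurons 0.06 and -0.05, and choroid plexus 0.31 and 0.14. Members of 1 list were measured on the same arrays, so that their number is not a number of separate observations.

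Ttr, the thyroxine carrier of the choroid plexus, shows the scale of that variation. Its intensity ran from 593 to 23450 in LF_LF (median 17720), from 619 to 26950 in HF_HF (median 18060), from 203 to 21710 in LF_HF (median 11990) and from 493.2 to 24260 in HF_LF (median 14340). Each group held very low and very high animals. The difference of 0.91 ± 0.67 (SE, p = 0.183) was the largest of all kept probes, with a 95% interval of -0.45 to 2.28. Sostdc1 and Kl, both strong in choroid plexus, differed by 0.38 ± 0.25 and 0.39 ± 0.25 (SE).

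The mean log2 level of the choroid plexus list ran from 6.77 to 8.98 in LF_LF, from 6.82 to 8.80 in HF_HF, from 6.54 to 9.04 in LF_HF and from 6.75 to 8.90 in HF_LF. The striatal list ran from 8.91 to 10.65, from 8.74 to 10.49, from 8.77 to 10.57 and from 9.31 to 10.56 in the same order. The ranges overlapped widely, though the striatal list did not reach as low in HF_LF. Its mean was 9.99 in LF_LF, 9.47 in HF_HF, 9.93 in LF_HF and 9.88 in HF_LF. Tac1, the substance P precursor of striatal output neurons, differed by -0.29 ± 0.21 (SE), with -0.01 in LF-fed and -0.58 in HF-fed offspring. Over the striatal list the median was 0.14 in LF-fed and -0.45 in HF-fed offspring. The part of unequal tissue in the values of other genes was not tested.

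Blood cell genes had 1 of 6 measured higher and 5 lower, with a median of -0.12, and a median of 0.10 in LF-fed and -0.33 in HF-fed offspring. The list's mean level ran from 7.75 to 8.66 in LF_HF, from 7.53 to 8.18 in LF_LF, from 7.43 to 8.15 in HF_HF and from 7.37 to 8.39 in HF_LF, highest in LF_HF and with overlap. Hba-a1, a globin of red cells, differed by -0.16 ± 0.13 (SE) and Alas2, which makes their haem, by -0.17 ± 0.09 (SE). LF_HF was thus high both for blood genes and for Per2, and the part of blood in the Per2 value was not tested.

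**Figure D3:**
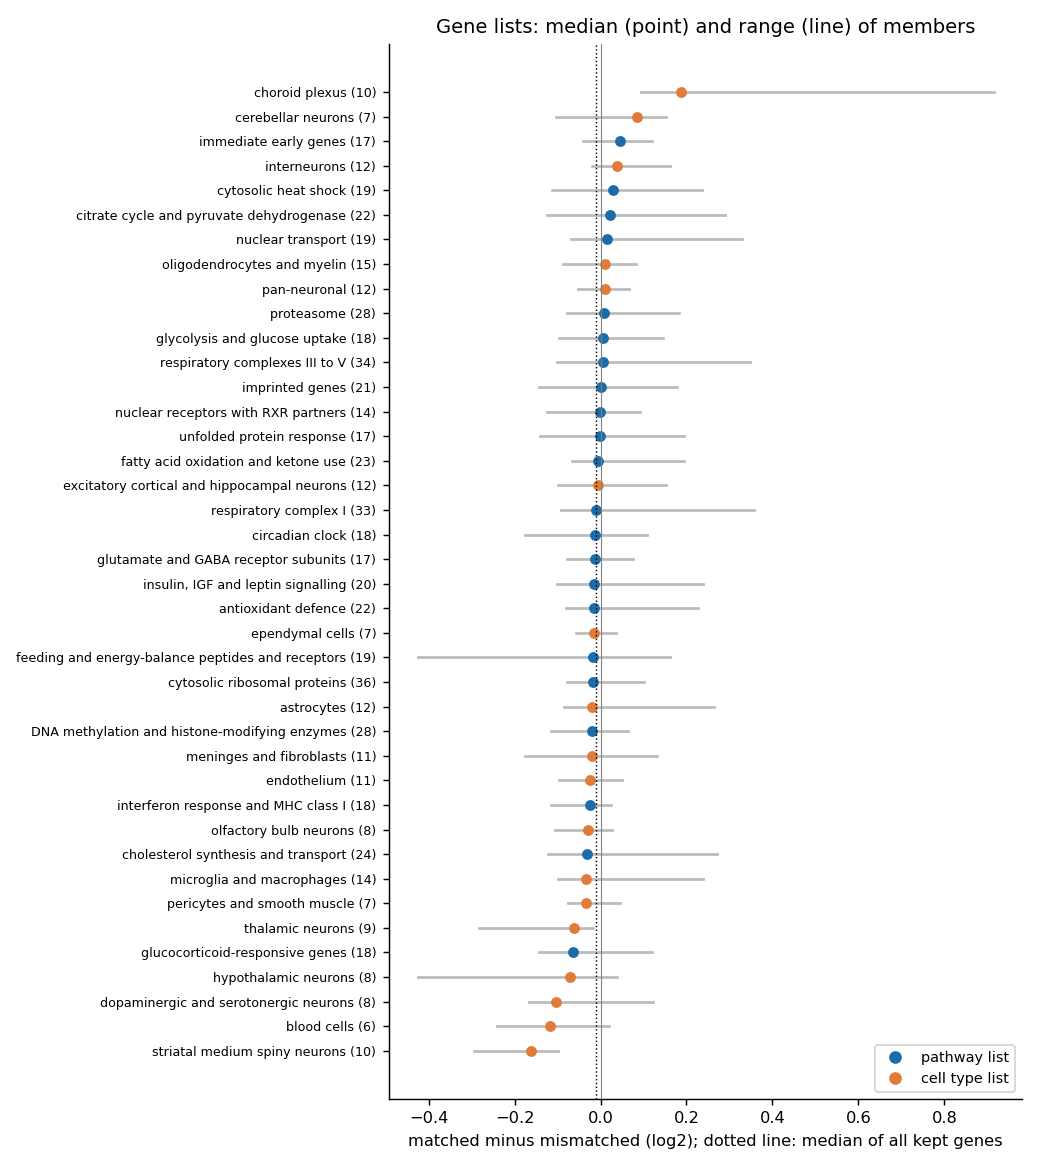
Matched minus mismatched difference (log2) of the 40 gene lists with at least 5 measured genes (number in brackets), as median (point) and range of members (line). Choroid plexus lies highest at 0.19 and striatal medium spiny neurons lowest at -0.16, and most medians lie near that of all genes (-0.01).

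**Figure D4:**
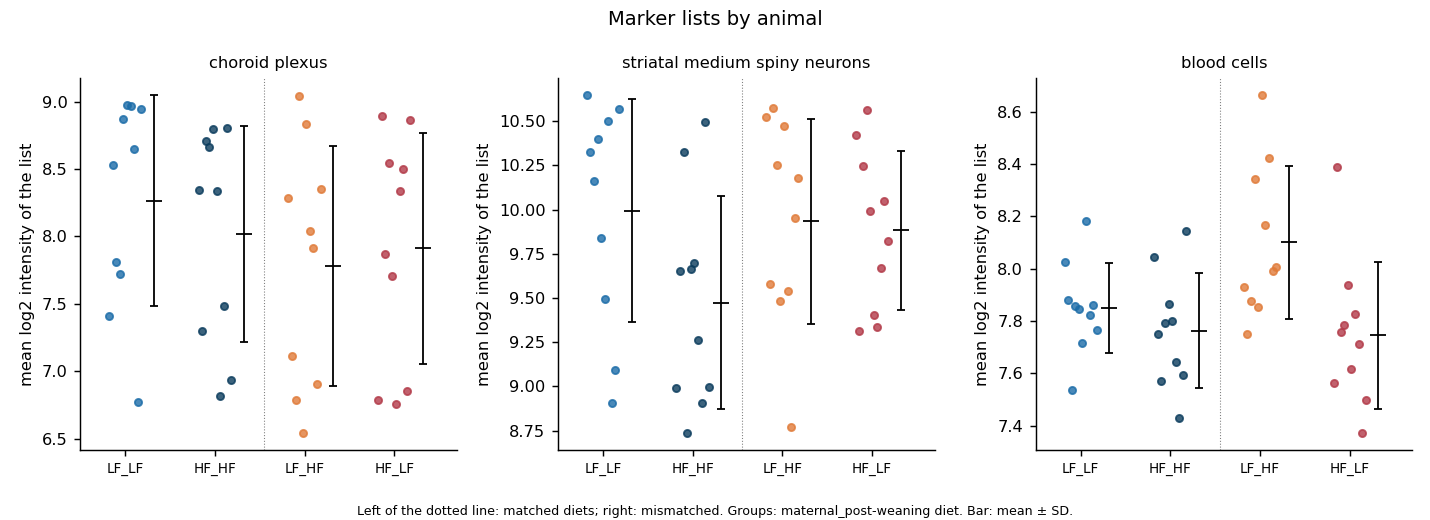
Mean log2 intensity of the choroid plexus, striatal and blood cell lists in each animal (points) by group, with mean ± SD (bars). Choroid plexus levels span about the same range in all 4 groups. Striatal levels overlap but do not reach as low in HF_LF, and blood levels are highest in LF_HF.

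The matched minus mismatched difference is the average of a part measured in LF-fed offspring (LF_LF minus HF_LF) and a part measured in HF-fed offspring (HF_HF minus LF_HF), which share no array. A mismatch effect that works alike on both diets gives both parts the same sign, whereas a plain effect of the maternal diet gives them opposite signs. In LF-fed offspring 0 of 14381 probes passed and 219 (1.52%) had an unadjusted p under 0.05. In HF-fed offspring 0 passed and 549 (3.82%) did so.

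Over all kept probes both parts had the same sign for 6849 (47.6%), and their correlation was -0.01, given as a description over probes of the same 40 jointly normalised arrays. Opposite signs and the same sign both occurred among the named genes. Fkbp5 (-0.33 and 0.11), Cartpt (0.29 and -0.56) and Pmch (0.55 and -1.03) had opposite signs, whereas Ttr (0.84 and 0.99), Kl (0.47 and 0.32) and Hcrt (-0.29 and -0.56) had the same sign on both diets without passing.

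**Figure D5:**
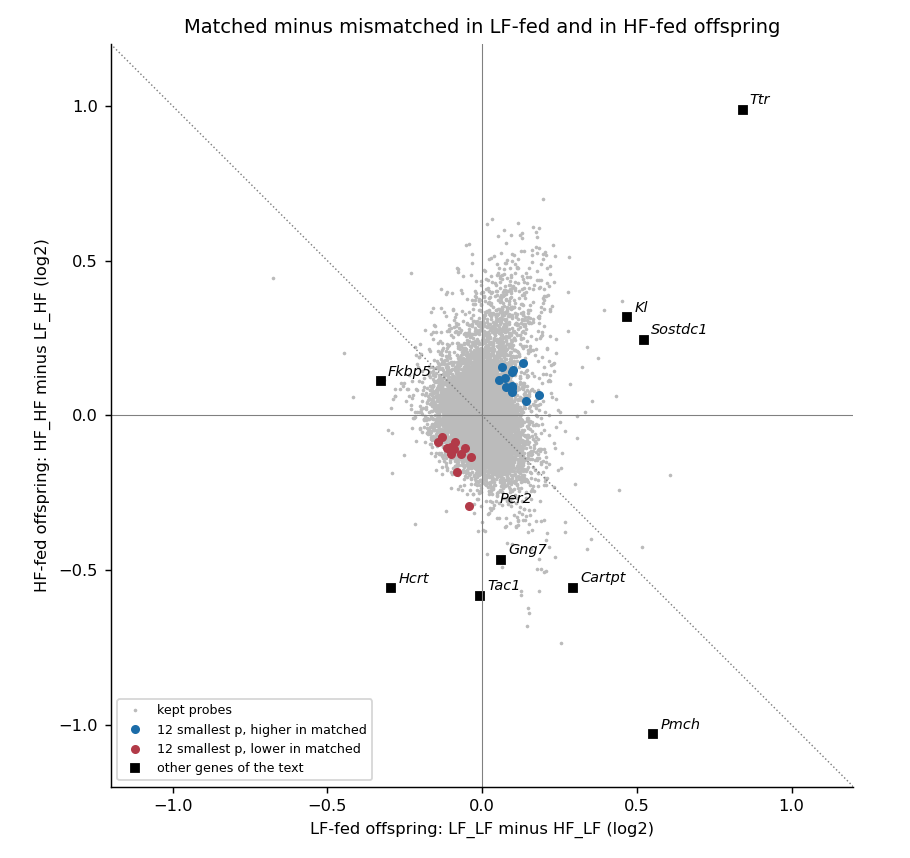
Difference of LF_LF minus HF_LF (x axis, log2) against HF_HF minus LF_HF (y axis, log2) for each of the 14381 kept probes (grey), with the 24 genes of smallest p (blue higher, red lower) and other genes of the text (black). On the dotted line the average of both is 0, and the correlation over probes is -0.01.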

How the data were processed

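Whole-brain RNA of 40 animals was labelled with biotin and hybridised, 1 array per animal. The deposited table holds linear intensities, which the authors took from BeadStudio, with no version stated, and quantile-normalised across all brain arrays. This leaves all arrays with nearly the same distribution (the sorted columns differ by at most 1.1 units). Arrays have no read depth, and their number limits the precision.

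Intensities were log2-transformed with no offset. Probes were kept where at least 20 of 40 arrays exceeded background, set on each array as the 95th percentile of 1341 olfactory, vomeronasal and taste receptor probes. Of 25697 probes 14381 were kept, 13536 of them with a gene symbol of the array annotation, for 9945 genes. A model of 4 group means was fitted in limma 3.58.1 (R 4.3.3, eBayes with a trend), with Benjamini-Hochberg adjustment over all kept probes, and again over every probe. Body measures and principal components were compared by permuting residuals of the additive model of both diets (100000 permutations, two-sided). Animals were permuted singly, with no account of cage. Alternatives changed the filter, scaling, test, array weights, cage terms and a covariate, and left out each cage in turn. The fit was tested on simulated data.

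Groups, lists and named genes were chosen with earlier results of these data known. Named were the 12 genes of smallest p in each direction, up to 3 genes of smallest p in each described list, and Npy, Cartpt, Hcrt, Pmch, Pomc, Agrp, Lepr, Lss, Sc4mol, Srebf1, Pparg, Nr1d1 and Cebpb. Other genes in the text (Per1, Arntl, Dbp, Nr3c1, Fos, Arc, Rsad2, Psmd11, Ndufb11, Atp5g3 and A430078G23Rik) were added after their values were seen. Lists used the brightest probe of each gene. No detection p-values were used here. Figures were drawn with matplotlib 3.10.9, and promoter sequences are those of RefSeq.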

Additional observations from a re-analysis of the deposited data

Results flagged for a closer look

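Among 288 groups of values examined, 16 held 1 animal far from the other animals of its group, and chance alone flags about 1 in 20 such groups. Single animals stood low on the log2 scale for Exd1 (6.06 in LF_HF), Elmo3 (6.47 in HF_HF), Clec2e (6.39 in HF_HF), Per2 (9.24 in HF_LF), Bhlhb9 (10.97 in LF_HF), Ciart (7.83 in HF_HF, next value 8.14), Bdh1 (8.17 in HF_LF) and Ttr (9.21 in LF_LF, next value 11.91). Single animals stood high for Esco1 (6.96 in LF_HF), Map3k6 (7.57 in LF_LF), Alas2 (7.99 in LF_HF and 7.48 in HF_HF), Hba-a1 (13.87 in LF_HF), Cartpt (10.13 in HF_HF), Pparg (7.54 in HF_LF) and Nr1d1 (8.54 in LF_HF).

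For weight at 3 weeks, matched minus mismatched was -1.35 g in animals later fed LF and 2.43 g in those later fed HF, and these values differed by -3.79 g (permutation p = 1e-05, the smallest the permutations can give, adjusted 4e-05). This difference is by construction the effect of the maternal diet with its sign turned and summed over both diets. It was present before the post-weaning diets began. Each cage had 1 maternal diet. The permutations treated animals of 1 cage as separate, so that this permutation p does not measure the spread between cages.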

How the results depend on the processing

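Of 25 alternative fits, all but the one over every probe gave 0 probes past the threshold. All 24 genes of smallest p kept their direction in each fit that held them (lowest adjusted p 0.544). They were ranked on these same arrays, which favours a kept direction. Over every probe, 1 passed, A430078G23Rik, in the matched comparison and 1 in HF-fed offspring, the same probe (adjusted p = 0.0226). The number of probes with an unadjusted p under 0.05 was 457 over every probe, 58 with a regularised t-test and 1040 with array weights, and between 93 (without cage 9) and 482 (without cage 11) when cages were left out in turn, with 269, 259, 225 and 214 without cages 12, 21, 14 and 20. In LF-fed offspring it ranged from 132 (without cage 23) to 370 (without cage 11), with 331 without cage 1, and was 98 with the regularised test and 545 with the first component as a covariate. For matched minus mismatched in HF-fed offspring, unadjusted p under 0.05 was held by 259 (without cage 4) to 1064 probes (without cage 14), with 886 without cage 21, 300 with the regularised test and 1732 with array weights. Per2 ranged from -0.21 to -0.09 and Ttr stayed above 0.33. Matched minus mismatched weight at 3 weeks ranged from 0.300 g to 0.948 g and body length from 0.637 mm to 1.60 mm as cages were left out, the highest values passing (without cage 23 and without cage 11). The second weight ranged from 0.213 g (without cage 12) to 0.935 g (without cage 23) and blood glucose from -17.1 mg/dl (without cage 11) to -3.94 mg/dl (without cage 8), with none passing, and over cage means the 4 measures gave 0.539 g, 0.438 g, -14.6 mg/dl and 0.871 mm. Over scaled probes the second principal component differed by -0.0143 in place of 0.02.

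Some differences changed sign. Nr1d1 became 0.00813 after cyclic loess, 0.00339 without the 5 arrays that stood apart, 0.0551 with cage as a fixed effect, 0.0026 over cage means and 0.0171 with the first component as a covariate. Pparg became 0.0114 with array weights and 0.0982 with cage fixed. Cebpb became -0.0184 with array weights, -0.0371 without those arrays and -0.0138 over cage means. Jun became -0.105 with cage fixed, and Pmch 0.00151 and Srebf1 0.00588 with the covariate. The causes were not tested. Leaving out cages in turn gave ranges of -0.0459 to 0.0156 for Nr1d1, -0.0218 to 0.0255 for Cebpb, -0.554 to 0.151 for Pmch, -0.0146 to 0.184 for Dusp1. List medians near 0 crossed it too. Without cage 23 the immediate early median was -0.00586 and the feeding median 0.0117. The insulin median was 0.0173 without cage 4, the fatty acid median 0.0155 without cage 9 and the imprinted median -0.027 without cage 21. The clock median reached 0.000444 in the fits that kept all cages.

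Cage as a fixed effect gave no value for LF-fed or HF-fed offspring alone, since each cage had 1 maternal diet. No paired analysis was possible because the labels number no replicates, and animals of 1 cage were instead linked through cage as a random or fixed effect. The consensus correlation within cages was -0.0577.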
